A study of Equus caballus with 23 samples.

Results

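The genes described here are the nuclear-encoded subunits of the mitochondrial respiratory chain and ATP synthase, measured by RNA sequencing in the gluteus medius, a large muscle of the hindquarter, of Arabian horses. They were chosen by symbol in the authors' deposited annotation, as genes whose symbol starts with NDUFA, NDUFB, NDUFC, NDUFS, NDUFV, UQCR, ATP5, COX4, COX5, COX6, COX7 or COX8, or is CYC1, SDHA, SDHC or SDHD, leaving out the assembly factors that start with NDUFAF and any gene of the mitochondrial genome. The rule found 62 genes among 26991, of which 8842 carried a symbol. RefSeq lists 83 horse symbols that meet the rule, of which 59 matched a member, and others such as SDHD, COX6C, COX7B and COX8A are not analysed here.

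The 23 libraries came from 3 time points of training for flat racing. At T0 the horses were untrained and 2.5 years old (5 libraries, 3 male and 2 female). At T1 they were 3 years old and had finished a phase of intense galloping, before any racing (8 libraries, 4 male and 4 female). At T2 they were 3 years old and had completed the racing season (10 libraries, 7 male and 3 female). The labels give each library its own number (m1 to m23) and do not tie libraries to horses across time points, so no horse could be compared with itself. Training and the difference in age between T0 and the later time points cannot be told apart, and p-values reflect only how these libraries differ from each other. Muscle was taken with a biopsy needle, so each library mixes fibres with other cells. In such bulk samples, fewer cells of a type and less RNA per cell cannot be told apart.

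Oxidative phosphorylation passes electrons from NADH (complex I) and succinate (complex II) through complex III to oxygen at complex IV, and the protons pumped on the way drive ATP synthase, complex V. All complexes but complex II combine subunits encoded in the nucleus with a few encoded in mitochondrial DNA, so their supply depends on both genomes. Skeletal muscle is known to raise its mitochondrial content with endurance training, and slow fibres carry more mitochondria than fast ones.

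Of the 62 genes, 29 belong to complex I, 7 of them the core subunits that carry the cofactors and the quinone site, 2 to complex II, 5 to complex III, 12 to complex IV and 14 to complex V. NDUFA4 and NDUFA4L2 were placed in complex IV, since NDUFA4 is now known as a cytochrome c oxidase subunit. ATP5SL keeps its older symbol here and was counted with complex V by that symbol alone. The gene is now known as DMAC2, an assembly factor rather than a structural subunit. All 62 passed the filter on low counts, and all are listed as protein coding with 1 transcript. They lie on 26 chromosomes and an unplaced scaffold, and few are neighbours: NDUFV1 and NDUFS8 lie 99.4 kb apart on chromosome 12, and COX6B1 and COX7A1 lie 386.9 kb apart on chromosome 10. Their genes are short, with a median span of 5279.5 bp against 18721.5 bp for all 9628 annotated genes tested, and 74.2% of them span less than 10 kb, against 34.0% of all annotated genes. UQCRFS1 is a model of only 609 bp and ATP5D lies on an unplaced scaffold. Genes of this family have many processed copies in mammalian genomes, and the counting could split or misplace reads among such copies. Coordinates are those of the authors' tables, whose genome build no label or header names.

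The total count per library ranged from 12185608 to 23641809, with means of 15040400 in T0, 20392800 in T1 and 15799200 in T2. The 62 genes took 2.16 ± 0.47% of counts in T0, 2.24 ± 0.151% in T1 and 2.60 ± 0.288% in T2 (SD, n = 5, 8 and 10). Counts from the mitochondrial genome took 42.9 ± 7.77%, 53.0 ± 3.99% and 48.1 ± 2.87% (SD). Levels are given as CPM, counts scaled to a common TMM-adjusted library size. CPM is not divided by transcript length, so it compares a gene between libraries and not one gene with another. Muscle markers were abundant in all libraries (ACTA1, skeletal actin, had a median of 18248 CPM). Markers of other cells were also detected, with medians of 101 CPM for FABP4 (adipocytes and endothelium), 64.9 CPM for PECAM1 (endothelium), 58.2 CPM for DCN (fibroblasts), 46.3 CPM for ACTA2 (smooth muscle), 3.05 CPM for ADIPOQ (adipocytes) and 2.03 CPM for CD68 (macrophages). Erythroid markers are not analysed here. Library m3 of T1 stood apart: its TMM factor was the lowest at 0.66, and its slow fibre genes exceeded its fast fibre genes by 4.19 in mean log2 CPM, against -2.34 to 0.52 in the other T1 libraries. The numbers of called members in each comparison of time points are given with and without it. So are the sum of complex IV and, in a comparison with T1, ATP5D, COX5A and COX6A2. Other values include m3 unless stated, among them those of NDUFB3, where it was also far above the other T1 libraries.

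The summed level of each complex gives the broad picture. Complex I summed to 4681 ± 687 CPM in T0, 6207 ± 969 CPM in T1 and 6699 ± 1087 CPM in T2 (SD, n = 5, 8 and 10). Complex V summed to 7563 ± 1236, 10678 ± 1584 and 11195 ± 1879 CPM. Both were lowest in T0 on average, and T1 and T2 overlapped widely. Complex III summed to 2425 ± 443, 3175 ± 308 and 3347 ± 531 CPM, and complex IV to 2739.8 ± 534, 3751 ± 921 and 4022 ± 741 CPM. Without m3, complex IV summed to 3448 ± 365 CPM in T1 (SD, n = 7). Complex II, which was represented by SDHA and SDHC, summed to 813 ± 62.7, 1094 ± 73.4 and 955 ± 142 CPM and was the one complex whose mean was highest in T1. These sums were not tested.

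**Figure D1:**
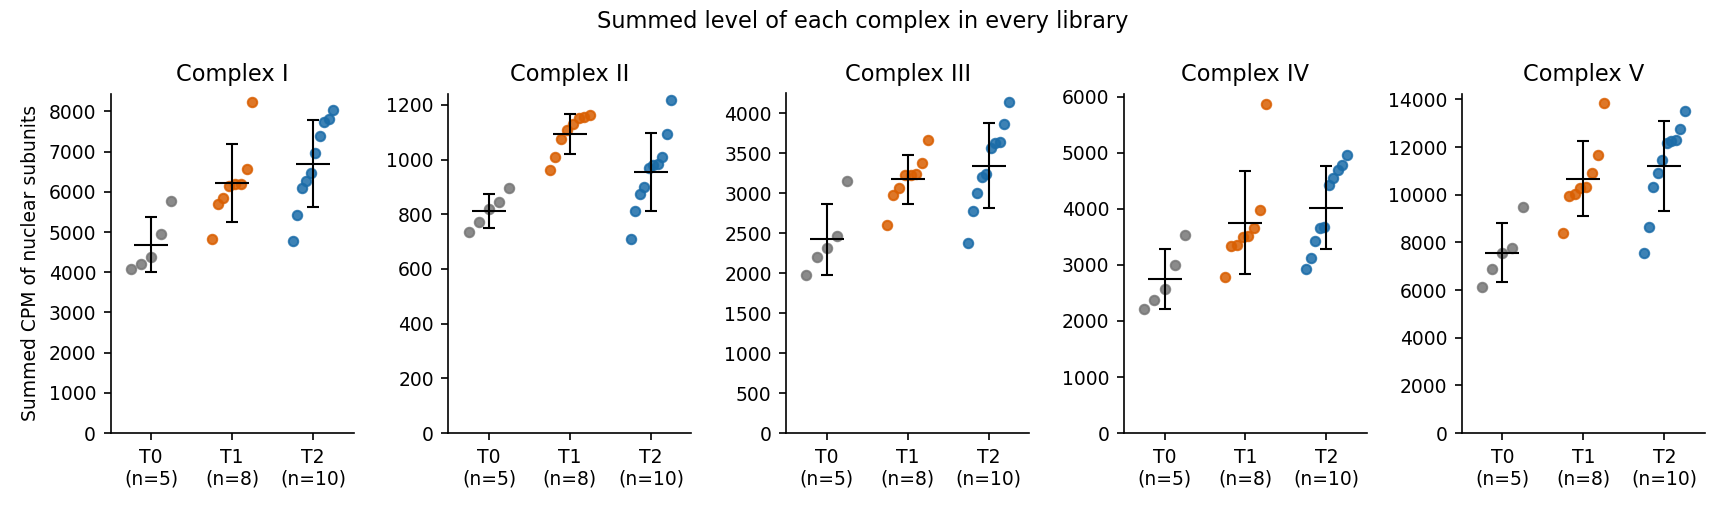
Summed CPM of the subunits of each complex in each library (points) at T0, T1 and T2, with the mean and SD (black). T0 has the lowest mean in every complex, and in complex IV library m3 stands at 5871 CPM above the other T1 libraries, the next of which is at 3982 CPM.

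Differences were tested with edgeR's quasi-likelihood test, and a gene is said to have risen or fallen where its p, adjusted over the 11545 tested genes by the Benjamini-Hochberg method, was below 0.05. The size of each change is a log2 fold change with its SE. T0 values are listed for libraries m8, m9, m10, m12 and m13 in that order, and T1 and T2 values as the lowest and highest library with the median.

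At the end of the season (T2), against the untrained state (T0), respiratory chain genes were broadly higher. In T2, 44 of the 62 genes rose and 0 fell (71.0% of members), where 6.73% of the 11545 tested genes rose and 9.3% fell. All 62 fitted log2 fold changes were above 0, with a median of 0.54 (a 1.46-fold level), against a median of -0.03 for all tested genes. Across the other settings 59 to 62 of the 62 were above 0, with 60 where libraries were scaled by nuclear genes without TMM. The rise covered 21 of 29 genes of complex I (median 0.54), 4 of 5 of complex III (0.43), 8 of 12 of complex IV (0.56) and 11 of 14 of complex V (0.58). In complex II 0 of 2 passed, with log2 fold changes of 0.23 for SDHA and 0.22 for SDHC. SDHB, a complex II subunit that the rule does not take in, did rise in this comparison and is given below with other pathway genes. Of the 44 calls, 17 were made in each of the 23 fits that leave out 1 library. The count fell to 17 without m13, 21 without m9, 25 without m10 and 29 without m16 or m22. It was 50 without m3, where 9.84% of all tested genes rose, and that share is not reported here for the other fits. The slow minus fast fibre score was -4.82 to -2.64 in T2, against -5.33 to -3.54 in T0, with 0 of the slow and fast fibre genes called, and 45 members rose with the score in the model, where 6.63% of all tested genes did. Of the pericyte and smooth muscle markers, RGS5 and PDGFRB (2 of 5) fell, with the list's sum at 87.7 to 204 CPM in T2, against 75.4 to 426 CPM in T0. Markers of fibroblasts, endothelial cells, adipocytes and macrophages had 0 calls, and the part of these cells in the result was not tested.

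Within complex I, the accessory subunits carried most of the calls. NDUFV2, an iron-sulfur core subunit of the NADH-oxidizing arm (chromosome 8, 33975543 to 34008354), had 240.2, 205, 232, 296 and 190.2 CPM in the T0 libraries, 233 to 321 CPM (median 271) in the T1 libraries and 255 to 433 CPM (median 376) in the T2 libraries. Its T0 libraries m8, m9, m10 and m13 lay at or below 240.2 CPM, and only m12 reached into the T2 range. The log2 fold change between T2 and T0 was 0.63 ± 0.14 SE (adjusted p = 0.006). NDUFA12, an accessory subunit of the matrix arm, had 119, 73.6, 86.9, 133 and 69.2 CPM in the T0 libraries, 115 to 206 CPM (median 138) in the T1 libraries and 118 to 203 CPM (median 156) in the T2 libraries. Its T2 libraries overlapped T0 only at m8 and m12, and the log2 fold change was 0.72 ± 0.17 SE (adjusted p = 0.0068). NDUFB3, an accessory subunit of the membrane arm, had 71.6, 54.4, 55.8, 86.3 and 42.9 CPM in the T0 libraries, 67.6 to 123 CPM (median 79.4) in the T1 libraries and 73.4 to 121 CPM (median 102) in the T2 libraries, with a log2 ratio of 0.69 ± 0.17 SE (adjusted p = 0.0091). NDUFS5, an accessory subunit of the membrane arm, was one of 3 members whose T2 libraries all lay above all T0 libraries. It had 97.0, 75.8, 85.5, 100.2 and 64.0 CPM in the T0 libraries, 73.7 to 164 CPM (median 98.2) in the T1 libraries and 101 to 168 CPM (median 142) in the T2 libraries, and the log2 fold change was 0.69 ± 0.17 SE (adjusted p = 0.0098).

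The core subunits of complex I had log2 fold changes between 0.21 and 0.63 (median 0.54), and the accessory subunits between 0.42 and 0.72 (median 0.55). Of the 7 core subunits 3 rose, among them NDUFS3 and NDUFV2, while 18 of the 22 accessory subunits did. NDUFV1, which binds FMN and oxidizes NADH, had 219, 232, 157, 256 and 244 CPM in the T0 libraries, 189.8 to 341 CPM (median 281) in the T1 libraries and 204 to 369 CPM (median 239) in the T2 libraries, so the time points overlapped across most of their range. Its log2 fold change between T2 and T0 was 0.21 ± 0.16 SE (adjusted p = 0.366). NDUFS1, the largest iron-sulfur protein of the complex, had 481, 519.9, 382, 490.4 and 401 CPM in the T0 libraries, 462 to 705 CPM (median 632) in the T1 libraries and 352 to 713 CPM (median 531) in the T2 libraries, with a log2 ratio of 0.26 ± 0.15 SE (adjusted p = 0.226). NDUFS7 and NDUFS8, which carry iron-sulfur clusters near the quinone site, had log2 fold changes of 0.56 and 0.44 (adjusted p = 0.077 and 0.102). The difference between core and accessory subunits was not tested.

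In complex III, UQCRB, an accessory subunit, had 434, 296, 392, 651 and 334 CPM in the T0 libraries, 384 to 639 CPM (median 451) in the T1 libraries and 494 to 862 CPM (median 647) in the T2 libraries. Library m12 was the highest T0 library for this gene and lay inside the T2 range, while the others lay below the lowest T2 library. The log2 fold change between T2 and T0 was 0.61 ± 0.18 SE (adjusted p = 0.024). UQCRFS1, the Rieske iron-sulfur protein, and UQCRC1, a core protein, rose by log2 fold changes of 0.50 and 0.43, and CYC1, cytochrome c1, by 0.38. UQCRC2, the second core protein and the member of complex III with the highest CPM, had 643, 650.1, 572, 946 and 547 CPM in the T0 libraries, 849.9 to 1145 CPM (median 926) in the T1 libraries and 584 to 1107 CPM (median 933) in the T2 libraries, and its log2 fold change was 0.41 ± 0.15 SE (adjusted p = 0.063).

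Complex IV held the largest log2 fold change of the 62 genes and also the smallest. COX7A2, the isoform found in most tissues (chromosome 10, 29922264 to 29926700), had 43.0, 27.5, 34.9, 24.4 and 18.3 CPM in the T0 libraries, 28.5 to 58.7 CPM (median 37.4) in the T1 libraries and 33.1 to 77.0 CPM (median 50.7) in the T2 libraries. Library m8 was highest among T0 libraries for this gene, and the others lay at 34.9 CPM or below. The log2 fold change between T2 and T0 was 0.86 ± 0.21 SE (adjusted p = 0.0099). COX5A (chromosome 1, 118845790 to 118857700), a subunit on the matrix side, had 326, 314, 273, 351 and 238 CPM in the T0 libraries, 281 to 521 CPM (median 378) in the T1 libraries and 359 to 595 CPM (median 494) in the T2 libraries. All 10 T2 libraries lay above all 5 T0 libraries for this gene, and the log2 fold change was 0.70 ± 0.15 SE (adjusted p = 0.0055). COX7A2L, a COX7A relative that takes part in supercomplex assembly, rose by 0.60 ± 0.15 SE (adjusted p = 0.011). NDUFA4L2, a hypoxia-responsive relative of NDUFA4 that was at a low level here, had 3.44, 2.75, 1.95, 1.80 and 1.74 CPM in the T0 libraries, 1.11 to 3.27 CPM (median 2.46) in the T1 libraries and 1.68 to 4.75 CPM (median 1.91) in the T2 libraries, with a log2 ratio of 0.02 ± 0.28 SE (adjusted p = 0.977).

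Several subunits of complex IV exist as pairs of tissue isoforms. COX4I1, the common isoform and the member of complex IV with the highest CPM, rose by 0.52 ± 0.17 SE (adjusted p = 0.038) in T2 against T0. COX4I2, its lung and hypoxia isoform, had 2.38, 2.42, 2.31, 2.33 and 1.35 CPM in the T0 libraries, 1.14 to 2.72 CPM (median 1.95) in the T1 libraries and 2.19 to 3.62 CPM (median 2.83) in the T2 libraries, and its log2 fold change between T2 and T0 was 0.40 ± 0.19 SE (adjusted p = 0.142). Among the muscle isoforms, COX7A1 rose by 0.57 ± 0.19 SE (adjusted p = 0.043). COX6A2, the other muscle isoform, had 223, 123, 183, 187 and 267 CPM in the T0 libraries, 193 to 625 CPM (median 282) in the T1 libraries and 114 to 404 CPM (median 209.6) in the T2 libraries, with a log2 ratio of 0.22 ± 0.26 SE (adjusted p = 0.599), and the T2 range enclosed the T0 range. COX6A1, the isoform of most other tissues, had a log2 ratio of 0.14 ± 0.15 SE (adjusted p = 0.529), and its levels lay between 4.16 and 9.23 CPM in all T0 and T2 libraries.

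In complex V the members that rose included parts of the catalytic head, the rotor and the stalk. ATP5B, the catalytic beta subunit and the member of the whole set with the highest CPM, had 2272, 2485, 2082, 2998 and 2065 CPM in the T0 libraries, 2699 to 4635 CPM (median 3592) in the T1 libraries and 2261 to 4633 CPM (median 3516) in the T2 libraries. Library m12 was the highest T0 library and m15 the lowest T2 library, and the log2 fold change was 0.56 ± 0.17 SE (adjusted p = 0.025). ATP5A1, the alpha subunit, rose by 0.49 ± 0.15 SE (adjusted p = 0.032). ATP5G1 and ATP5G3, which encode the same c subunit of the rotor ring, rose by 0.73 ± 0.18 SE (adjusted p = 0.0093) and 0.66 ± 0.15 SE (adjusted p = 0.0073). ATP5J2, subunit f of the membrane part (chromosome 13, 161895 to 164677), had 163, 123, 121, 159 and 86.3 CPM in the T0 libraries, 123 to 264 CPM (median 167) in the T1 libraries and 167 to 310.0 CPM (median 251) in the T2 libraries, with no T2 library inside the T0 range. Its log2 fold change was 0.83 ± 0.18 SE (adjusted p = 0.006). The 3 genes that did not pass were ATP5D, the delta subunit of the central stalk (0.43), ATP5S (0.23) and ATP5SL (0.21), counted here by its symbol only.

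**Figure D2:**
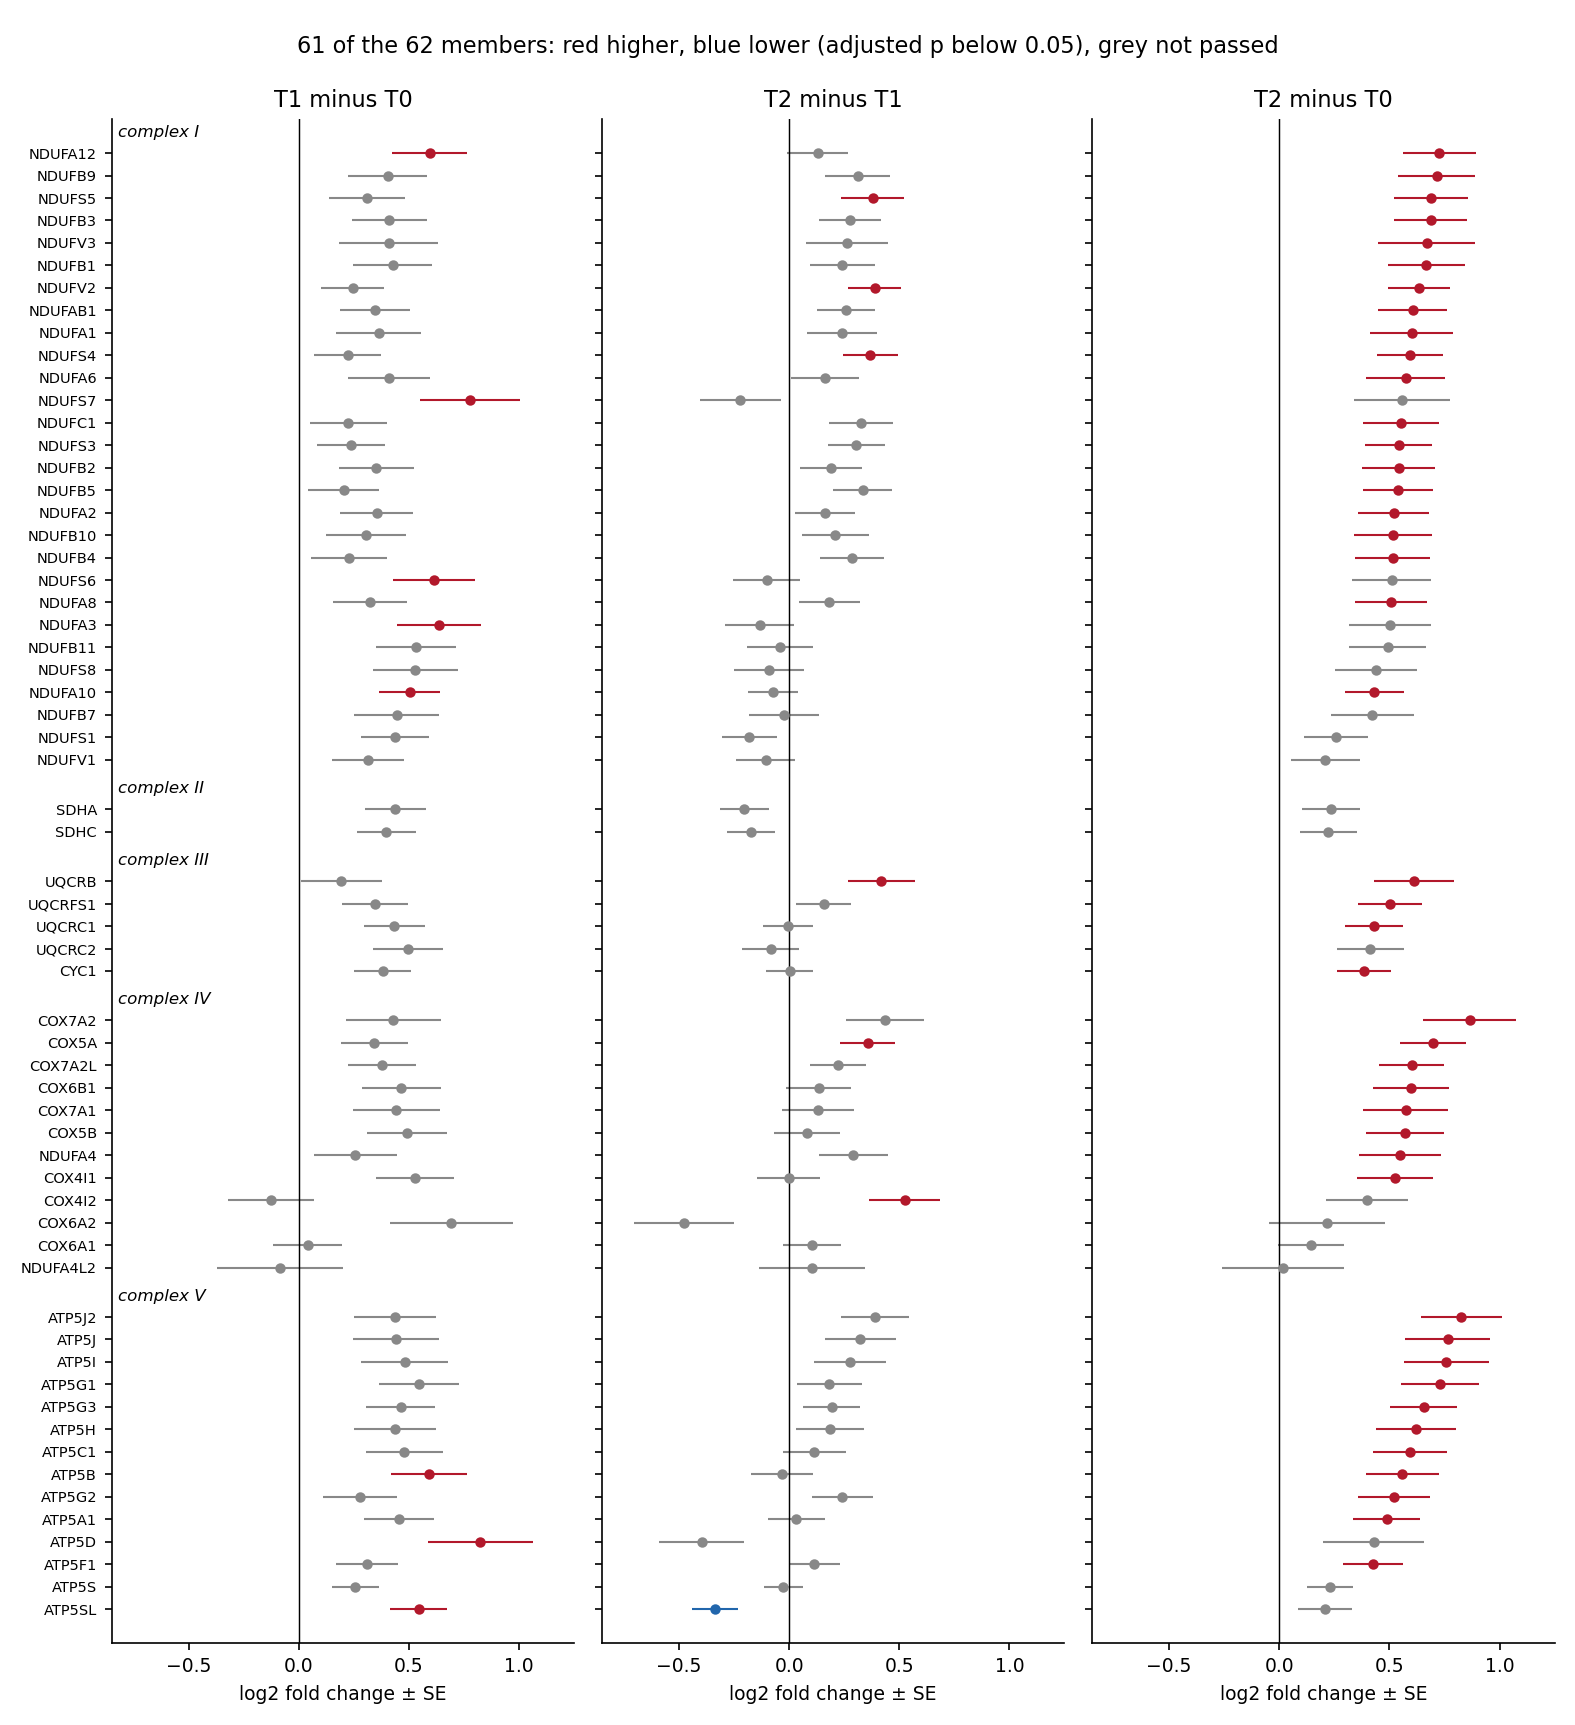
Log2 fold change with SE for 61 of the 62 members, grouped by complex, in T1 minus T0, T2 minus T1 and T2 minus T0. Red points rose and the blue point fell at an adjusted p below 0.05. In T2 minus T0 all 61 points lie right of 0 and 43 are red, and in T2 minus T1 they lie on both sides, with 42 right of 0.

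The members that did not overlap between T2 and T0 were NDUFS5, COX5A and ATP5J2 (4.84% of members), all of them higher in T2, where 0.944% of all tested genes were higher and 1.72% lower in every T2 library than in every T0 library.

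After the gallop phase (T1), against the untrained state (T0), fewer members passed the test. In T1, 9 rose and 0 fell of the 62 (14.5% of members), where 3.57% of all tested genes rose and 3.34% fell. The median log2 fold change of the members was 0.42, against -0.02 for all tested genes, and 60 of the 62 were above 0. The 9 that rose were counted with complex I (6 genes, among them NDUFA3, NDUFA10, NDUFA12, NDUFS6 and NDUFS7) and complex V (3 genes). Those of complex V were ATP5B, ATP5D and, by its symbol only, ATP5SL. In complexes II, III and IV 0 passed over all libraries, with medians of 0.42, 0.38 and 0.40.

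NDUFS7 (chromosome 7, 397758 to 404411) had 171 to 342 CPM (median 260.0) in the T1 libraries, against 213, 123, 159, 122 and 160.3 CPM in the T0 libraries. Library m11 was the one T1 library inside the T0 range. The log2 fold change between T1 and T0 was 0.78 ± 0.23 SE (adjusted p = 0.037). NDUFA10, an accessory subunit, had 321 to 416 CPM (median 368) in T1, against 256, 272, 213, 309 and 246 CPM in T0, with no overlap. Its log2 fold change was 0.50 ± 0.14 SE (adjusted p = 0.028).

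In complex V, ATP5D had the largest log2 fold change of the 62 genes in this comparison. It had 101 to 220.0 CPM (median 143) in T1, against 105, 60.0, 78.7, 64.7 and 106 CPM in T0, and the log2 fold change was 0.82 ± 0.24 SE (adjusted p = 0.037). Library m3 was the highest of T1 for this gene and m11 the lowest. Without m3 the other T1 libraries of ATP5D reached 149 CPM, its log2 fold change was 0.73 (adjusted p = 0.068), and NDUFS7 had as large a log2 ratio of 0.73 (adjusted p = 0.059). ATP5SL (chromosome 10, 11961705 to 11966561) had 30.4 to 43.0 CPM (median 35.3) in T1, against 25.1, 28.8, 24.8, 26.6 and 17.2 CPM in T0, with no overlap. Its log2 fold change was 0.54 ± 0.13 SE (adjusted p = 0.012), and it alone was called in each of the 23 fits that leave out 1 library. ATP5B rose by 0.59 ± 0.17 SE (adjusted p = 0.037). At the other end of the set was COX4I2, at -0.13 ± 0.19 SE (adjusted p = 0.773).

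SDHA, the flavoprotein that binds succinate (chromosome 21, 57593041 to 57620148), had 738 to 937 CPM (median 873) in T1, against 572, 678, 543, 665 and 668 CPM in T0. All 8 T1 libraries lay above all 5 T0 libraries, while the log2 fold change of 0.44 ± 0.14 SE (adjusted p = 0.052) did not pass the threshold. Without m3 SDHA did pass, at 0.46 (adjusted p = 0.039). It also passed with DESeq2 and with 1 surrogate variable, but not with sex as a covariate or with T2 kept out of the fit. SDHC, a membrane anchor of the same complex, had a log2 ratio of 0.40 ± 0.13 SE (adjusted p = 0.070). NDUFA10, SDHA and ATP5SL were the 3 members (4.84%) without overlap, all of them higher in T1, where 1.86% of all tested genes were higher and 1.12% lower in every T1 library than in every T0 library.

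The count in T1 depended on single libraries. It was 1 without m10, 2 without m9 or m13, 4 without m1, m5 or m7, 5 without m2, 6 without m3 (3.09% of all tested genes), 15 without m11 and 17 without m12. For the fits other than that without m3, the share of all tested genes is not reported here. Without m3, NDUFA3, NDUFA12, NDUFS6, NDUFS7 and ATP5D lost their call, while SDHA and NDUFS1 were newly called. With the difference between slow and fast fibre genes (the score above) as a covariate, a fit added after seeing the data, 0 members passed and their median log2 fold change was 0.12, while among all 11545 tested genes 0 rose and 1 fell. That score ranged from -2.34 to 4.19 in T1, against -5.33 to -3.54 in T0, and of the slow fibre genes 14 of 15 rose. Of the fibroblast markers, DCN and COL3A1 (2 of 5) fell, with the list's sum at 59.1 to 141 CPM in T1, against 87.0 to 322 CPM in T0, and their part in the result was not tested.

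Between T1 and the end of the season, few members passed the test. In T2, against T1, 6 of the 62 rose (9.68%) and 1 fell (1.61%), where 12.6% of all tested genes rose and 15.1% fell, shares that exceed those of the members. The median log2 fold change was 0.16, against -0.01 for all tested genes, with 43 of 62 above 0. Those that rose were NDUFS4, NDUFS5 and NDUFV2 of complex I, UQCRB of complex III and COX4I2 and COX5A of complex IV. 0 of the 62 were without overlap, where 0.788% of all tested genes were higher and 1.45% lower in every T2 library than in every T1 library.

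NDUFV2 had 255 to 433 CPM (median 376) in T2, against 233 to 321 CPM (median 271) in T1, and rose by 0.39 ± 0.12 SE (adjusted p = 0.017). NDUFS4, an accessory subunit of the matrix arm, rose by 0.37 ± 0.13 SE (adjusted p = 0.031), and NDUFS5 by 0.38 ± 0.14 SE (adjusted p = 0.048). UQCRB had 494 to 862 CPM (median 647) in T2, against 384 to 639 CPM (median 451) in T1, and rose by 0.42 ± 0.15 SE (adjusted p = 0.043). COX5A had 359 to 595 CPM (median 494) in T2, against 281 to 521 CPM (median 378) in T1, and rose by 0.36 ± 0.13 SE (adjusted p = 0.036). Without m3, COX5A averaged 361 ± 37.8 CPM in T1 (SD, n = 7) and rose by 0.43 (adjusted p = 0.0067). COX4I2 had the largest log2 fold change of the set over all libraries, 0.52 ± 0.16 SE (adjusted p = 0.018), while without m3 that of COX7A2 was the largest at 0.53. COX4I2 was at levels of 2.19 to 3.62 CPM (median 2.83) in T2, against 1.14 to 2.72 CPM (median 1.95) in T1.

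ATP5SL was the member that fell, to 19.7 to 35.3 CPM (median 28.3) in T2, against 30.4 to 43.0 CPM (median 35.3) in T1. Its log2 fold change was -0.33 ± 0.10 SE (adjusted p = 0.019). The lowest log2 fold change of the set over all libraries was that of COX6A2, -0.48 ± 0.23 SE (adjusted p = 0.116), with 114 to 404 CPM (median 209.6) in T2, against 193 to 625 CPM (median 282) in T1. Library m3 was far above the other T1 libraries for COX6A2, the next of which was at 322 CPM. Without m3, COX6A2 averaged 274 ± 39.4 CPM in T1 (SD, n = 7) and had a log2 ratio of -0.27 (adjusted p = 0.330), and ATP5SL was then the lowest of the set at -0.33 (adjusted p = 0.020). Both complex II genes lay below 0, SDHA at -0.20 ± 0.11 SE (adjusted p = 0.182) and SDHC at -0.17 ± 0.11 SE (adjusted p = 0.242).

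This comparison turned on library m3: without it 21 members rose, where 16.1% of all tested genes did, and without m3 and m12 together, left out after seeing the data, 25 did, where 17% of all tested genes did. The count was 10 without m15, 3 without m2, m4, m6 or m18, and 2 without m5, m7, m11, m14, m16, m17 or m22. Shares of all tested genes are not reported here for these fits. NDUFV2, COX4I2 and ATP5SL were called in each of the 23 fits, and 3 members fell without m22. With that fibre score as a covariate, 20 rose and 0 fell, with 0.40 as the members' median, where 11% of all tested genes rose and 11.2% fell. The score was -4.82 to -2.64 in T2, against -2.34 to 4.19 in T1, and 12 of 15 slow fibre genes fell and 11 of 12 fast fibre genes rose. Of the pericyte and smooth muscle markers RGS5 (1 of 5) fell and 0 rose, while the list's median log2 fold change was above 0, at 0.60. The sum of that list was 87.7 to 204 CPM in T2, against 78.4 to 143 CPM in T1. Of the macrophage markers CSF1R (1 of 2) fell, with a sum of 2.44 to 4.65 CPM in T2, against 2.11 to 4.77 CPM in T1. Markers of fibroblasts, endothelial cells and adipocytes had 0 calls, and the part of these cells in the result was not tested.

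**Figure D3:**
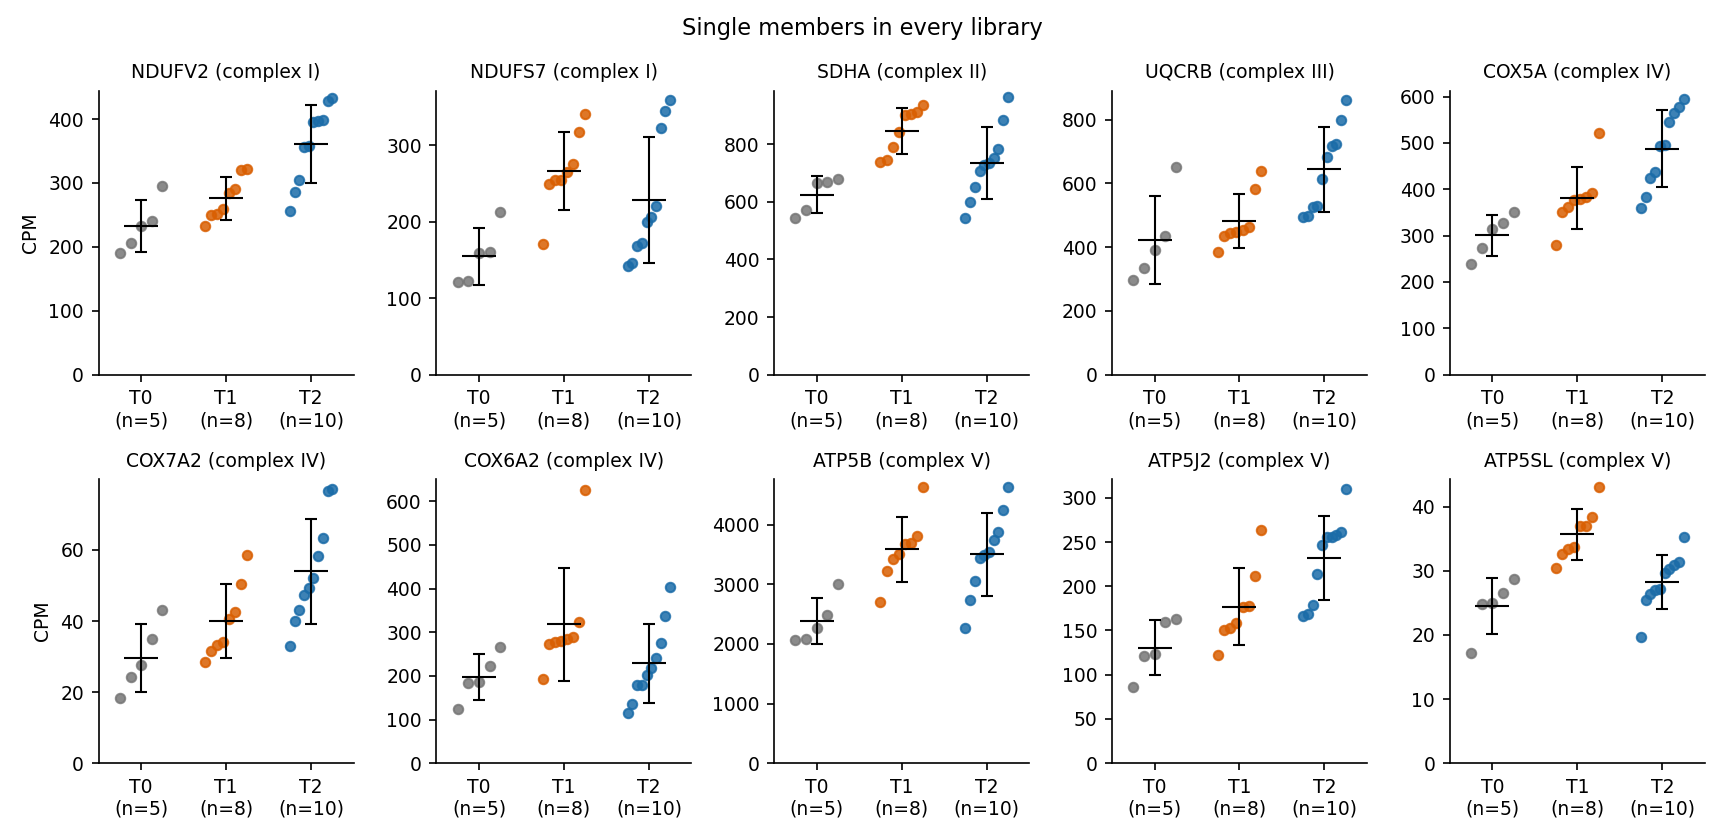
CPM of 10 members in each library (points) with the mean and SD (black) at T0, T1 and T2. COX5A and ATP5J2 show T2 libraries that all lie above T0, SDHA and ATP5SL have their highest mean in T1, and the highest T1 point of COX6A2, at 625 CPM, is library m3.

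Set side by side, the comparisons sort the members by time course. By fitted values, 41 members had T0 lowest and T2 highest with T1 between them, 19 had T1 highest and 2 had T1 lowest. The comparisons share libraries, so these orders are a description. 4 members, among them NDUFA10, NDUFA12 and ATP5B, rose in both T1 and T2 against T0, 35 rose only in T2 against T0, and 12 passed in none of the 3 comparisons. Those with T1 highest included both complex II genes, NDUFS1, NDUFS7, ATP5D, COX6A2 and ATP5SL.

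The libraries differed from one another in the level of the whole set. The mean deviation of the 62 genes from their average over all libraries, in log2 CPM, ran from -0.63 in m13 to -0.06 in m12 among T0 libraries, from -0.33 in m11 to 0.51 in m3 among T1 libraries, and from -0.23 in m15 to 0.40 in m16 among T2 libraries. 5 libraries (m3, m14, m16, m17 and m22) also showed a fall of expression with gene span over the genes other than the members, with slopes of -0.07 to -0.05 log2 CPM per doubling of span, against -0.014 to 0.054 in the other 18. These 5 libraries had the highest mean deviations of the set. Without them, a choice made after seeing the data, 12 members rose in T2 against T0 (ATP5G3, ATP5J, ATP5J2, COX5A, COX7A2, COX7A2L, NDUFA12, NDUFB1, NDUFB3, NDUFB9, NDUFS5 and NDUFV2), where 2.23% of all tested genes rose. With the trend on span removed in each library instead, 32 members rose in T2 against T0, all of them among the 44, where 7.19% of the 9595 genes tested rose. In T2 against T1, leaving out the 5 libraries left 0 members that rose and 4 that fell (ATP5D, ATP5SL, COX6A2 and NDUFS7), where 8.69% of all tested genes rose and 9.43% fell. Across the 62 genes, log2 fold change and span had Spearman correlations of 0.05 for T2 against T0, -0.04 for T1 against T0 and 0.01 for T2 against T1, over genes that share the same libraries.

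**Figure D4:**
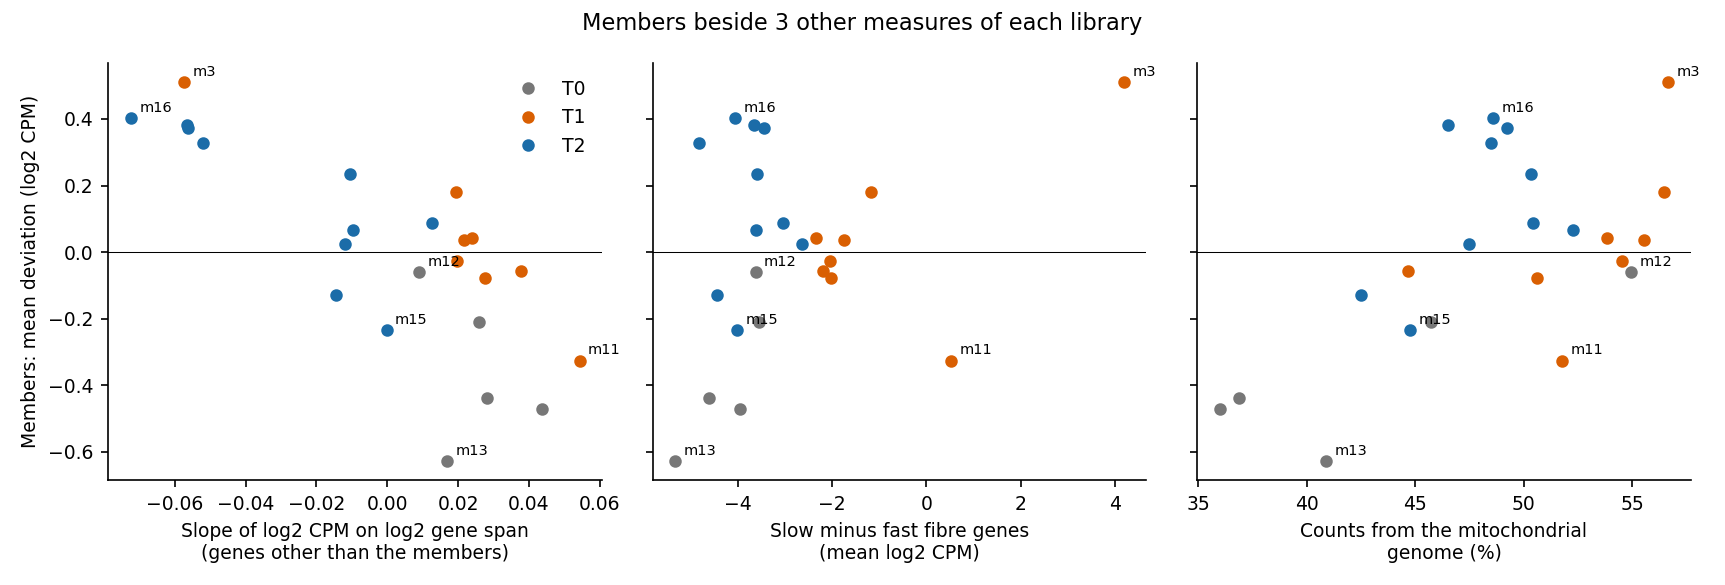
Mean deviation of the 62 members in each library (vertical axis, log2 CPM) against 3 other measures of the same library (horizontal axes), coloured by time point. The 5 libraries with slopes on gene span at or below -0.05 lie at the top of the left panel, and m3 lies far to the right in the middle panel at a slow minus fast score of 4.19.

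The scaling of the libraries also moved the counts. With library sizes taken from the nuclear genes alone and no TMM factor, added after seeing the data, 22 members rose in T2 against T0 and 3 in T1 against T0, where 1.69% and 1.67% of all tested genes rose. The median of all tested genes was then -0.15 and -0.14, and that of the members 0.41 and 0.28. In all 3 comparisons of time points the direction of the members' median was the same under each setting tried.

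**Figure D5:**
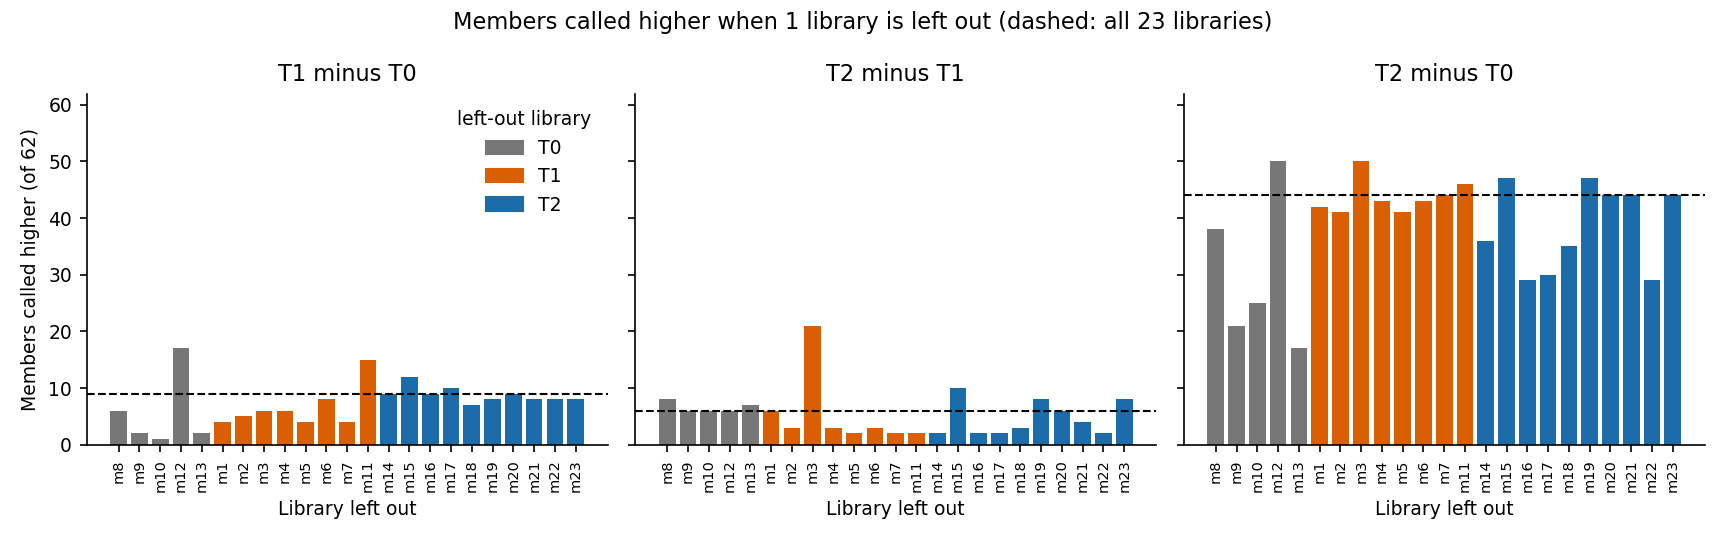
Number of the 62 members called higher when 1 library is left out, coloured by the time point of that library, with the count over all 23 libraries as a dashed line at 9, 6 and 44. The lowest bar for T2 minus T0 is 17 without m13, and the highest bar for T2 minus T1 is 21 without m3. Shares of all tested genes are not shown.

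Other genes of the pathway were taken from 4 lists. The 12 mitochondrially encoded subunits had 0 calls in T2 against T0 (median log2 fold change 0.30) and 0 in T1 against T0 (median 0.55). In T2 against T1, 2 of them fell (16.7%, near the 15.1% of all tested genes), both subunits of complex I: ND5 had -0.53 ± 0.16 SE (adjusted p = 0.019) and ND4L -0.53 ± 0.17 SE (adjusted p = 0.026). Among 19 mobile carriers and electron donors, 10 rose (52.6%, against 6.73% of all tested genes) and 0 fell in T2 against T0. In T1 against T0, 7 rose (36.8%, against 3.57%) and 1 fell (5.26%, against 3.34%). In T2 against T1, 3 rose (15.8%, against 12.6%) and 4 fell (21.1%, against 15.1%). CYCS, cytochrome c, rose in T2 against T0 by 0.57 ± 0.15 SE (adjusted p = 0.017). SDHB, the iron-sulfur subunit of complex II, rose by 0.57 ± 0.14 SE (adjusted p = 0.0098) in T2 and by 0.67 ± 0.15 SE (adjusted p = 0.0073) in T1, both against T0. ETFB and ETFDH, which link fatty acid oxidation to the ubiquinone pool, rose in T1 against T0 (log2 fold changes 1.14 and 0.65) and fell in T2 against T1 (-0.66 and -0.53). COQ10A, a ubiquinone-binding protein, rose in T2 against T0 by 0.70 ± 0.17 SE (adjusted p = 0.0089), and COQ3, an enzyme of ubiquinone synthesis, by 0.54 ± 0.13 SE (adjusted p = 0.008).

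Of 43 assembly factors, 19 rose (44.2%, against 6.73% of all tested genes) and 0 fell in T2 against T0 (median 0.39). In T1 against T0, 5 rose (11.6%, against 3.57%) and 1 fell (2.33%, against 3.34%). In T2 against T1, 11 rose (25.6%, against 12.6%) and 3 fell (6.98%, against 15.1%). LYRM7, which helps insert the Rieske protein into complex III, averaged 13.5 CPM in T2 and 6.80 CPM in T0, a log2 ratio of 0.98 ± 0.16 SE (adjusted p = 0.0012). COA6, a copper-related factor of complex IV, rose by 0.71 ± 0.16 SE (adjusted p = 0.0058). TMEM126B, a complex I assembly factor, averaged 11.97 CPM in T2 and 6.80 CPM in T1, which is a log2 ratio of 0.81 ± 0.12 SE (adjusted p = 4.3e-05). In T1 against T0 it fell, with a log2 ratio of -0.52 ± 0.14 SE (adjusted p = 0.025). NDUFAF3, another complex I factor, rose in T1 against T0 by 0.69 ± 0.19 SE (adjusted p = 0.025).

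Among 17 nuclear regulators of respiratory chain genes, more fell than rose in both comparisons of T2. In T2 against T0, 1 rose (5.88%, against 6.73% of all tested genes) and 3 fell (17.6%, against 9.3%). TFB2M, a mitochondrial transcription factor, rose by 0.41 ± 0.10 SE (adjusted p = 0.0093), and PPARA, a receptor that controls fatty acid oxidation genes, had a log2 ratio of -0.90 ± 0.25 SE (adjusted p = 0.021). NRF1, a factor known to bind promoters of this family, had -0.45 ± 0.14 SE (adjusted p = 0.031), at a low level of 2.14 CPM in T2 and 2.97 CPM in T0. In T2 against T1, 1 rose (5.88%, against 12.6% of all tested genes) and 6 fell (35.3%, against 15.1%), PPARA by the largest margin, at -1.69 ± 0.22 SE (adjusted p = 1.7e-05). MEF2D, a muscle transcription factor, had -0.58 ± 0.16 SE (adjusted p = 0.0077). ESRRA, an orphan receptor that acts on the family's promoters, rose in T1 against T0 by 0.45 ± 0.12 SE (adjusted p = 0.023). In that comparison 1 of the 17 rose (5.88%, against 3.57% of all tested genes) and 0 fell.

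Female and male horses were compared across all libraries with time point in the model. Of the 62 members, 0 rose and 0 fell in females against males, and 0% and 0% of all tested genes did by edgeR's quasi-likelihood test with Benjamini-Hochberg adjustment. At an unadjusted p under 0.05, 13 of the members and 719 of all tested genes passed, and among all those tested DESeq2 called 1 gene higher, and limma voom called 2 higher and 1 lower. The members' log2 fold changes were all below 0 in this fit (3 were above 0 with limma voom, and up to 4 under the other settings), with a median of -0.21, where 49.9% of all tested genes were above 0. They ran from -0.33 for NDUFV3, an accessory subunit of complex I, to -0.01 for NDUFA4L2. Without m3, a male library, the lowest was COX4I2 at -0.28, and NDUFV3 was at -0.21. NDUFV3 had 161 ± 55.0 CPM in females and 206 ± 64.4 CPM in males (SD, n = 9 and 14), with m3 among the males at 357 CPM.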

How the data were processed

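RNA from gluteus medius biopsies (23 libraries) was sequenced in 50 cycles and 6 technical repetitions, per the labels, which do not say how these were combined. Tools named in the submitters' processing notes are FastQC, STAR, RSEM and DESeq2, with no version and no genome build. The deposited gene table holds expected counts, which are whole numbers in the file. Symbols, chromosomes and coordinates came from the authors' deposited annotation. The authors' own fold changes were not used, since the letters that name their groups are not explained in the labels.

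Counts were fitted with edgeR 4.0.16 in R 4.3.3, in 1 robust quasi-likelihood model of the 3 time points, after filterByExpr (minimum count 10, minimum total 15, 11545 genes kept, 99.9% of counts) and TMM scaling. Each comparison was a contrast, adjusted over all tested genes by the Benjamini-Hochberg method at 0.05. The SE was taken from the log2 fold change and the F statistic (size over root F). Sexes were compared with time point in the model. Log2 CPM used a prior count of 2. Low counts add counting error to the spread between libraries. No 2 libraries held identical values. On simulated data the test recovered 86%, 90% and 90% of genes changed 2-fold (T1 minus T0, T2 minus T1 and T2 minus T0), with 7, 10 and 10 false calls among 11545 genes. The changed genes were drawn from those above the median level. Every member's fitted change was smaller than 2-fold, so recovery of changes of that size was not measured.

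The members and the lists were chosen with earlier results of these data known. Named are, from each complex, up to 3 called members with the smallest p in each comparison and direction, the highest and lowest log2 fold change, the member with the highest mean CPM, a panel of subunits, and up to 2 called genes of each list with the smallest p. CYCS, SDHB and NRF1, and other members outside that rule, were named after their values were seen. Counts cover all 62 members, and 1 of them is not reported as a single gene in the text or the figures. The gene span of 62 members and all annotated tested genes came from the deposited coordinates. Alternatives were median ratio size factors, no filter, a fit that was not robust, sex or 1 surrogate variable (sva 3.50.0) as a covariate, mitochondrially encoded genes left out, only the 2 time points compared, DESeq2 1.42.0, limma 3.58.1 voom with sample weights, and leaving out each library. Python 3.11.15 and matplotlib 3.10.9 made the figures.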

Additional observations from a re-analysis of the deposited data

Results flagged for a closer look

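In 12 of 117 groups of libraries looked at, 1 library lay far from the rest of its time point for a named member or the sum of a complex. Chance flags about 1 in 20 of independent groups. These groups share libraries and the sums contain members, so that rate is no measure for them. Library m3 was the highest of T1 in 9 of the 12. It stood at 5871 CPM for the sum of complex IV (the next T1 library at 3982 CPM), at 220.0 CPM for ATP5D, at 1423 CPM for COX4I1, at 521 CPM for COX5A and at 625 CPM for COX6A2. It also led T1 with 1107 CPM for COX7A1, 773 CPM for NDUFA4, 123 CPM for NDUFB3 and 357 CPM for NDUFV3.

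Library m12 was the highest of T0 for NDUFV3 at 219 CPM and for UQCRC2 at 946 CPM. Library m13 was the lowest of T0 for COX4I2 at 1.35 CPM. Library m3 also had the highest slow minus fast fibre score of all libraries, 4.19, and its part in these values was not tested.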

How the results depend on the processing

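No paired analysis was possible because the library numbers do not repeat across time points. The search for motifs in promoters was not run, since promoter sequence was not used here. In the settings tried, no member called in either fit changed sign and the members' median kept its sign in each comparison, while members that were not called did cross 0: 59 to 62 of 62 were above 0 for T2 minus T0, 51 to 61 for T1 minus T0, 36 to 53 for T2 minus T1 and 0 to 4 for female minus male. Percentages in brackets are the shares of all tested genes called in the same direction, not given for fits with 1 library left out. For T1 minus T0, 9 members were called higher (3.57%). They became 15 with sex as a covariate (3.98%) and 4 when T2 was kept out of the fit (2.77%). With DESeq2 they became 23 (5.64%), with limma voom 28 (6.64%), and with 1 library left out 1 to 17. Among settings added after seeing the data, they became 17 without m3 and m12 (3.78%). They became 3 with nuclear library sizes and no TMM (1.67%), and 0 with the fibre score as a covariate (0%). For T2 minus T1, the 6 called higher (12.6%) became 3 with no filter on low counts (5.85%) and 3 with sex (12.1%). They became 10 with 1 surrogate variable (14.7%), 23 with limma voom (18.6%) and 2 to 21 with 1 library left out. They became 25 without m3 and m12 (17%), 0 without m3, m14, m16, m17 and m22 (8.69%), and 20 with the fibre score (11%). The 1 called lower (15.1%) became 2 with limma voom (19.7%), 0 with nuclear library sizes and no TMM (10.4%) and 4 without those 5 libraries (9.43%). It became 3 with the span trend removed (14.9%) and 0 with the fibre score (11.2%), and was 1 to 3 with 1 library left out (3 without m22). For T2 minus T0, the 44 called higher (6.73%) were 39 to 52 under the planned settings that keep all libraries (3.36% to 11.8%). They were 17 to 50 with 1 library left out, 22 with nuclear library sizes and no TMM (1.69%) and 12 without the 5 libraries (2.23%). In all of these the cause was not tested. For female minus male, 0 members were called in all settings tried. Among named members, 225 values lost their call, 119 gained one and 4766 did neither. Counts of 1 to 10 CPM, as for COX4I2, COX6A1 and NDUFA4L2, limit the precision of those genes.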
